A study of Canis lupus familiaris with 20 samples.

Results

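The change in gene expression between postnatal day 9 and day 14 was measured in vertebral cartilage of dogs with mucopolysaccharidosis VII (MPS VII). The comparison took the 10 libraries of affected dogs, 5 at each age, out of the 20 libraries of the series, and all genes were used. The fit held all 20 libraries, so the control dogs share in the estimate of the spread. Of 24580 genes in the table, 14550 had enough counts to be tested. Affected dogs were homozygous and control dogs heterozygous for a missense allele of GUSB, R166H, so the controls carried 1 copy of the same allele. Each library came from 1 animal, and its epiphyseal tissue from both ends of the T12 vertebra had been combined. The animals of day 9 and day 14 were different dogs, from litters that held both genotypes, and the litter and sex of each dog and the sequencing runs were not given in the sources used here. A difference between litters or runs therefore cannot be told apart from age.

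GUSB encodes beta-glucuronidase, a lysosomal enzyme that removes glucuronic acid from glycosaminoglycan chains, and its loss leaves these chains stored in cells and matrix. The vertebral epiphysis is cartilage at birth, and its chondrocytes enlarge and are replaced by bone as the secondary ossification centre forms. In MPS VII dogs this ossification is known to be delayed. The age comparison asked which genes changed over those days in the affected cartilage.

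The count table pairs no gene with a symbol, and 0 of its Ensembl identifiers matched the symbol table used here. Genes are therefore named by their position in CanFam3.1, as the table gives it, and the levels of GUSB and of cartilage, bone and other cell type markers could not be tested. Levels are in CPM, the counts of a gene relative to the scaled total of its library, and a difference is a log2 fold change of day 14 over day 9. Whether fewer cells held a transcript or each cell held less of it cannot be told apart in tissue. P-values measure the spread between these animals.

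The libraries held 21419930 to 27102423 counts at day 9 and 15772761 to 22471728 at day 14 (difference of means -5150560, exact two-sided permutation p = 0.0159, adjusted over 5 library measures 0.0795). Replicate 3 of day 9 lay far from its group. On the first principal component of the 10 libraries, with 32.3% of the variance, it stood at 100.9, and the other 9 stood between -27.7 and 6.55. Its 20 most abundant genes took 23.6% of its counts, and those of the rest of day 9 took 43.4% to 51.5%. The median SD of log2 CPM over genes was 0.34 in the day 9 group and 0.22 without this library, against 0.28 at day 14. Results that rest on it are given with and without it.

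Between day 9 and day 14, 3297 genes changed in affected cartilage (22.7% of those tested, adjusted p under 0.05 in the quasi-likelihood test of edgeR). Of these, 1854 rose (12.7%) and 1443 fell (9.92%). The risers moved further, with a median size of 0.70 on the log2 scale against 0.48 for the fallers, and changes of 2-fold or more numbered 428 upward (2.94%) and 167 downward (1.15%). In 1666 genes (11.5%) the 5 libraries of one age did not overlap those of the other, and 1557 of these were called. The falls were the less stable count. In a fit of the 10 affected libraries alone 1466 genes passed, 1169 higher and 297 lower, and with both genotypes in the fit but without day 14 replicate 2, 3 or 5 the fallers numbered 778, 681 and 770.

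Without day 9 replicate 3, 3902 of 14684 genes passed (26.6%), 2359 higher (16.1%) and 1543 lower (10.5%). The 2 fits shared 2679 calls in the same direction, 81.3% of the calls with all libraries, and 0 calls in opposite directions. The large falls depended most on that library. Of the 167 genes called at least 2-fold lower, 101 (60.5%) were no longer called without it, against 16 of 428 (3.74%) called at least 2-fold higher. It held the highest level of all 20 libraries in 89 of those 101 genes, and without it 83 genes (0.565%) fell and 544 (3.7%) rose at least 2-fold.

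The 8 largest rises and the 8 largest falls were taken from genes that both fits called, whose ages did not overlap and whose mean was at least 2 CPM at the higher age. The largest rise was in a gene of 86 bases with a single exon on chromosome 6, from 74881601 to 74881686 (ENSCAFG00000020484). Its levels were 0, 0.0835, 0.0395, 0.188 and 0.138 CPM in day 9 replicates 1 to 5 and 4.41, 3.43, 4.41, 3.71 and 3.1 CPM at day 14. It was close to absent in every animal of day 9 and present in every animal of day 14, with a log2 fold change of 5.35 ± 0.48 (SE, edgeR adjusted p = 1.08e-07). A longer gene runs over it on the same strand and itself rose by 0.35 (edgeR adjusted p = 0.0263). Whether the reads of the gene of 86 bases belong to the longer gene's transcript was not tested.

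A gene of 789 bases on chromosome 27, from 5411374 to 5412162 (ENSCAFG00000031299), stood at 0.772, 1.25, 0.158, 0.423 and 0.735 CPM at day 9. At day 14 its levels were 7.67, 9.38, 11.7, 9 and 7.76 CPM (log2 fold change 3.76 ± 0.31, edgeR adjusted p = 5.92e-08). Every animal of day 14 stood above every animal of day 9. A gene on the opposite strand overlaps it, and the strand setting of the counting was not given in the sources used here.

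Among longer genes, one of 3909 exon bases on chromosome 11, from 45179230 to 45185934, stood at 0.545, 0.668, 0.237, 0.611 and 0.643 CPM at day 9. It rose to 4.13, 4.57, 5.02, 6.09 and 3.39 CPM at day 14 (log2 fold change 3.09 ± 0.29, edgeR adjusted p = 2.12e-07). A gene of 26 exons on chromosome 37, from 438621 to 488974, went from 0.318, 0.585, 0.277, 0.94 and 0.965 CPM to 3.26, 4.62, 3.91, 3.39 and 5.09 CPM (log2 fold change 2.72 ± 0.34). In both genes, which each overlap a gene on the opposite strand, replicate 3 of day 9 was the lowest library, and without it the changes were 2.92 and 2.55.

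The other 4 of the 8 largest rises were in genes of 72 to 126 bases with 1 exon each. Reads were 100 bases long, so genes under 100 bases, the largest riser among them, are shorter than 1 read. Which RNA their reads came from was not tested. On chromosome 18, a gene of 91 bases, from 51703501 to 51703591, stood at 3.45, 2.59, 3.99, 3.86 and 4.27 CPM at day 9 and 16, 19.9, 22.9, 28.4 and 24.2 CPM at day 14. The log2 fold change was 2.62 ± 0.18, with the smallest adjusted p of the 8 (6.06e-09, edgeR). A gene of 126 bases on chromosome 21, from 7022772 to 7022897, went from 1.82, 1.34, 1.07, 1.36 and 1.01 CPM to 7.07, 9.57, 8.04, 5.77 and 7.9 CPM (log2 fold change 2.54 ± 0.23). A gene of 72 bases on chromosome 28, from 22226255 to 22226326, rose by 3.35 ± 0.35, and one of 77 bases on chromosome 7, from 25364626 to 25364702, by 2.97 ± 0.45, both from under 0.7 CPM to 1.84 CPM or more in every animal. All 8 rises also passed the test in control dogs, and in 0 of the 8 did the difference between genotypes pass (edgeR adjusted p 0.178 to 0.855, 1 at an unadjusted p under 0.05, 0 by DESeq2).

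**Figure D1:**
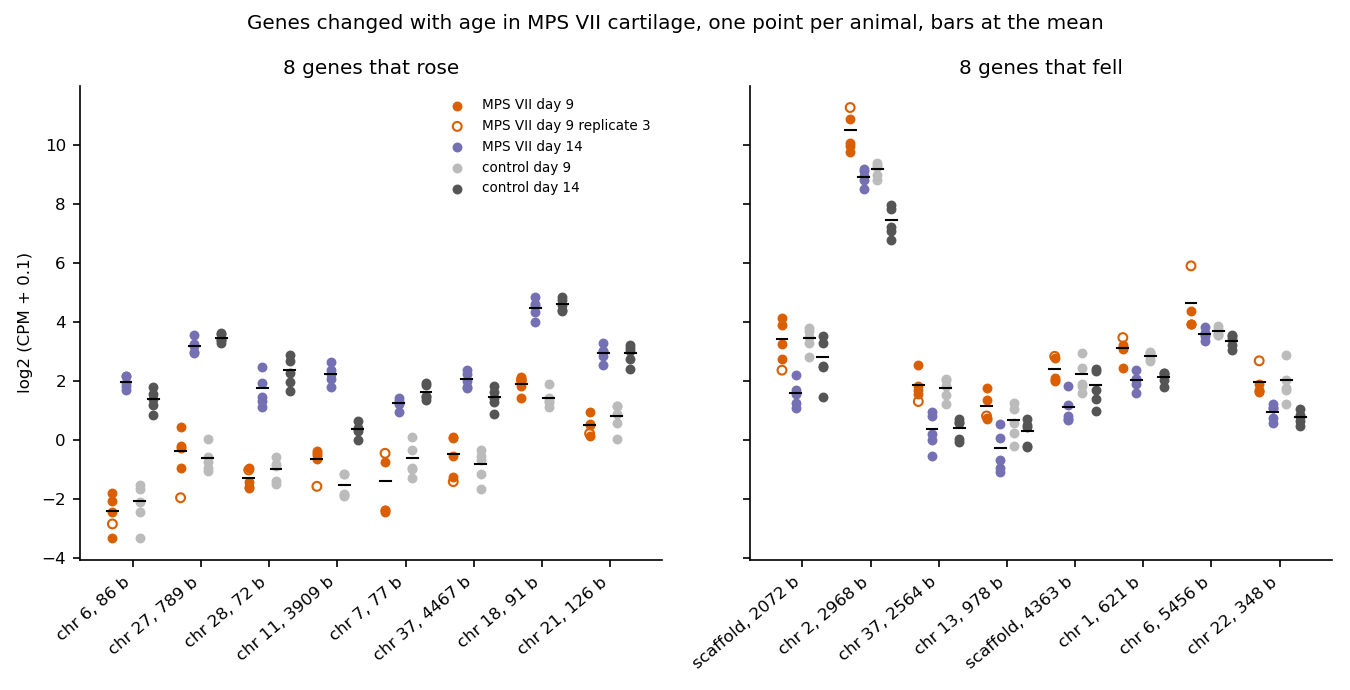
Level of the 8 genes with the largest rise (left) and the 8 with the largest fall (right), as log2 of CPM + 0.1; each point is 1 animal, bars mark group means, and genes are labelled by chromosome and exon bases. Purple (MPS VII day 14) lies apart from orange (MPS VII day 9) in every gene, and the open circle, day 9 replicate 3, is the highest of its group in 5 of the 8 falls.

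The falls were smaller. The largest was in a gene of 15 exons (ENSCAFG00000024920) on scaffold JH373574.1, from 7225 to 25812, at 9.35, 17.5, 5.06, 6.58 and 14.7 CPM at day 9. At day 14 it stood at 3.12, 2.28, 2.01, 2.86 and 4.46 CPM (log2 fold change -1.85 ± 0.37, edgeR adjusted p = 0.00138), and -2 without day 9 replicate 3. In controls the change was -0.64 ± 0.35 and did not pass (edgeR adjusted p = 0.151), and the difference between genotypes did not pass either (edgeR adjusted p = 0.204).

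Of the 8 largest falls, the one with the most reads was in a gene of 14 exons on chromosome 2, from 60470871 to 60494082 (ENSCAFG00000009421). It held 1059, 861, 2457, 1877 and 1005 CPM in day 9 replicates 1 to 5 and 554, 493, 362, 444 and 576 CPM at day 14 (log2 fold change -1.58 ± 0.27, edgeR adjusted p = 0.000228). The spread at day 9 was wide, with replicates 3 and 4 the highest, and without replicate 3 the change was -1.28. In controls it fell by 1.73 on the log2 scale, from 448 to 675 CPM to 111 to 247 CPM.

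Of the other 6 falls, a gene on chromosome 37, from 26052168 to 26058810, went from 5.76, 3.42, 2.37, 2.82 and 3.17 CPM to 1.84, 1.05, 0.893, 1.64 and 0.582 CPM (log2 fold change -1.54 ± 0.31). It overlaps a gene on the opposite strand, as does the gene on chromosome 22 given below. A gene with 2 exons on chromosome 1, from 70421909 to 70422531, went from 5.26, 8.77, 11, 9.12 and 8.46 CPM to 2.94, 3.62, 5.13, 4.13 and 4.07 CPM (-1.10 ± 0.18). A gene on chromosome 6, from 9120024 to 9144218, fell by 1.07 on the log2 scale, but most of that size came with 1 animal. Day 9 replicate 3 held 59.6 CPM, the rest of day 9 held 15 to 20.7 CPM and day 14 10.04 to 14.2 CPM, so without replicate 3 the change was -0.43 (edgeR adjusted p = 0.0194), and its call was lost with affected libraries alone (adjusted p = 0.0915). The remaining 3 changed by -1.54 (chromosome 13, from 61866224 to 61867201), -1.32 (scaffold JH373451.1, from 1930 to 11707) and -1.06 (chromosome 22, from 48675520 to 48675867). In controls the falls on chromosomes 2, 37, 1 and 22 were also called, and those on chromosomes 13 and 6 and on both scaffolds were not. In 0 of the 8 falls did the difference between genotypes pass (edgeR adjusted p, with 3 at an unadjusted p under 0.05, and 0 by DESeq2).

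Among the genes with the most reads, changes were smaller. Of the 20 most abundant by count in affected dogs 3 rose and 3 fell (15% each way), with a median log2 fold change of -0.15. Without day 9 replicate 3 the numbers were 3 and 6 and the median -0.26, and in controls 1 rose and 12 fell, with a median of -0.76. The difference between genotypes was called in 0 of the 20 by edgeR (7 at an unadjusted p under 0.05) and in 3 by DESeq2. On chromosome 23, a gene of 20 exons, from 41289828 to 41383170, stood at 2008, 2737, 611, 2235 and 2112 CPM at day 9 and 3204, 3362, 5462, 3365 and 4955 CPM at day 14. Every animal of day 14 was above every animal of day 9, and the log2 fold change was 1.07 ± 0.26 (edgeR adjusted p = 0.00504), or 0.87 without replicate 3 of day 9, the lowest of its group. With the affected libraries alone in the fit its call was lost (adjusted p = 0.0614). In controls this gene changed by 0.27 ± 0.25 and did not pass (edgeR adjusted p = 0.414), and the difference between genotypes had an adjusted p of 0.231, or 0.102 without day 9 replicate 3.

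Levels of a gene of chromosome 15 (from 31791505 to 31800707) went from 3300.1, 3527, 3562, 3311 and 2992 CPM to 3788, 4202, 5531, 5090.5 and 4715 CPM, again without overlap. Its log2 fold change was 0.48 ± 0.16 (edgeR adjusted p = 0.0297), and its call was lost without day 9 replicate 4 or 5 or day 14 replicate 3 (edgeR adjusted p 0.0549, 0.0642 and 0.0627). A gene on chromosome 3, from 23999219 to 24078497, went from 5421, 7497, 2797, 6303 and 4496 CPM to 7357, 6968, 13022, 6921 and 8879 CPM, and here the groups overlap. Its change of 0.70 ± 0.22 lost its call without day 9 replicate 5 (adjusted p = 0.0615) or day 14 replicate 3 (0.0996, change 0.53). Both calls were lost with affected libraries alone (adjusted p = 0.103 and 0.131).

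Among the 5 most abundant genes called lower, the clearest fall was on chromosome 22, in a gene of 5 exons from 9746296 to 9765774. It held 4883, 5752, 4739, 8158 and 5704 CPM at day 9 and 3507, 3316, 3896, 3383 and 4056 CPM at day 14, with no overlap (log2 fold change -0.69 ± 0.17, edgeR adjusted p = 0.00602). In controls it fell by 1.48 on the log2 scale, from 4186 to 5132 CPM to 1234 to 2081 CPM, so the control animals of day 14 were below all affected ones. The difference of 0.79 ± 0.24 did not pass with all libraries (edgeR adjusted p = 0.07) and passed without day 9 replicate 3 (0.041).

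A further 3 genes with many reads were called lower, on chromosomes 20 (from 44306720 to 44314610), 30 (from 6770135 to 6785062) and 24 (from 46668623 to 47275543), with log2 fold changes of -0.78, -0.68 and -0.79. The span of the gene on chromosome 24 overlaps 26 other genes, 12 on the same strand and 14 on the opposite strand. Its levels were 2374, 2280.3, 705, 3500.1 and 2333 CPM at day 9 and 1603, 1284, 1159, 1142 and 1299 CPM at day 14. Replicate 3 of day 9 was the lowest of all 10 animals in it, and without that library the change was -0.99 (edgeR adjusted p = 6.65e-05). The calls of all 3 were weak. Leaving out single animals ended the call in 2 of 10 fits for chromosome 20 (day 14 replicates 3 and 5, adjusted p up to 0.0754). It did so in 6 of 10 for chromosome 30 (day 9 replicates 1 and 4, day 14 replicates 2 to 5, adjusted p up to 0.0936) and in 8 of 10 for chromosome 24 (all but day 9 replicate 3 and day 14 replicate 1, adjusted p up to 0.127). With affected libraries alone 0 of these 3 passed (edgeR adjusted p 0.0804 to 0.13).

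The gene with the most reads of all, on chromosome 27 from 6756994 to 6787846, did not pass. It held 30.1% ± 3.39 of all counts at day 9 without replicate 3 (SD, n = 4), 7.48% in replicate 3 and 22% ± 4.25 at day 14 (n = 5). Its log2 fold change was -0.44 ± 0.38 with all libraries (edgeR adjusted p = 0.417) and -0.67 without replicate 3 (adjusted p = 0.0563). In controls the same gene fell by 1.27 on the log2 scale (edgeR adjusted p = 0.011), and the difference between genotypes did not pass (adjusted p = 0.429).

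The mitochondrial chromosome encodes subunits of the respiratory chain, both mitochondrial ribosomal RNAs and transfer RNAs. It is transcribed as long precursors that are cut into shorter RNAs. Its share of all counts ranged from 2.27% to 2.99% at day 9 and 2.43% to 3.71% at day 14 (difference of means 0.501 points, exact two-sided permutation p = 0.151). Of its 17 tested genes 4 rose, 3 fell and 10 did not pass (23.5% higher and 17.6% lower, against 12.7% and 9.92% of all tested genes). The mitochondrial genes thus moved in both directions and the change of their sum did not pass the test.

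The rises were in genes of 204, 297, 1378 and 1545 bases. The gene of 204 bases, from 7803 to 8006, stood at 108, 141, 86.8, 221 and 133 CPM at day 9 and 549, 583, 1109.6, 579 and 1052 CPM at day 14 (log2 fold change 2.49 ± 0.27, edgeR adjusted p = 1.48e-06). Its last 43 bases also belong to the next gene, from 7964 to 8644, which did not pass (-0.046 ± 0.18, adjusted p = 0.874). The gene of 297 bases, from 9911 to 10207, rose from 179, 199, 92.7, 178 and 189.7 CPM to 379, 407, 520.4, 333 and 561 CPM (1.39 ± 0.19, edgeR adjusted p = 1.75e-05). Both rises were seen in every animal, with no overlap of the ages.

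The gene of 1545 bases, from 5349 to 6893, went from 3803, 4033, 3814, 3350.3 and 3627 CPM to 5958, 6119, 6039, 5069 and 6175 CPM (log2 fold change 0.66 ± 0.15, edgeR adjusted p = 0.00349). The gene of 1378 bases, from 10201 to 11578, rose by 0.65 ± 0.21 (adjusted p = 0.0305) from 1344 to 2861 CPM to 2531 to 4579 CPM, ranges that overlap. It overlaps the gene of 297 bases by 7 bases, and its call was lost without day 9 replicate 1 or day 14 replicate 3 or 5 (adjusted p 0.0541, 0.0746 and 0.0786).

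The clearest mitochondrial fall was in a gene of 347 bases, from 9496 to 9842, which lies just before the riser of 297 bases on the same strand. It went from 513, 643, 439.6, 629 and 659.7 CPM to 266, 284, 339, 221 and 374 CPM (log2 fold change -0.96 ± 0.18, edgeR adjusted p = 0.000567), and the ages did not overlap. The gene of 784 bases before it, from 8644 to 9427, fell by 0.48 on the log2 scale (adjusted p = 0.0355), a call that was lost without any 1 of 8 of the 10 animals, all but day 9 replicates 1 and 3 (adjusted p up to 0.0946). A gene of 66 bases on the opposite strand, from 15392 to 15457, fell by 1.27 (adjusted p = 0.0189) from 144 to 356 CPM to 47.8 to 178 CPM, and its call was lost without day 14 replicate 2 (adjusted p = 0.0563). With affected libraries alone, the genes of 1378, 784 and 66 bases did not pass (adjusted p = 0.107, 0.114 and 0.0715).

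In controls the same 7 genes were called in the same directions. The gene of 204 bases rose by 2.53 ± 0.28 there, the gene of 297 bases by 1.44 ± 0.19, and the gene of 347 bases changed by -1.23 ± 0.18. In 0 of the 17 did the difference between genotypes pass the test (edgeR adjusted p 0.284 or higher, 0 at an unadjusted p under 0.05, 0 by DESeq2). The first long genes of the chromosome, of 954 and 1580 bases, had no call, and replicate 3 of day 9 stood apart in them, at 476 CPM against 162 to 226 CPM in the other 4 animals of day 9 for the former and 330.3 CPM against 146 to 219.9 CPM for the latter. A gene of 957 bases, from 2747 to 3703, passed only without that library (-0.48, adjusted p = 0.0339, against -0.33 and 0.275 with it).

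**Figure D2:**
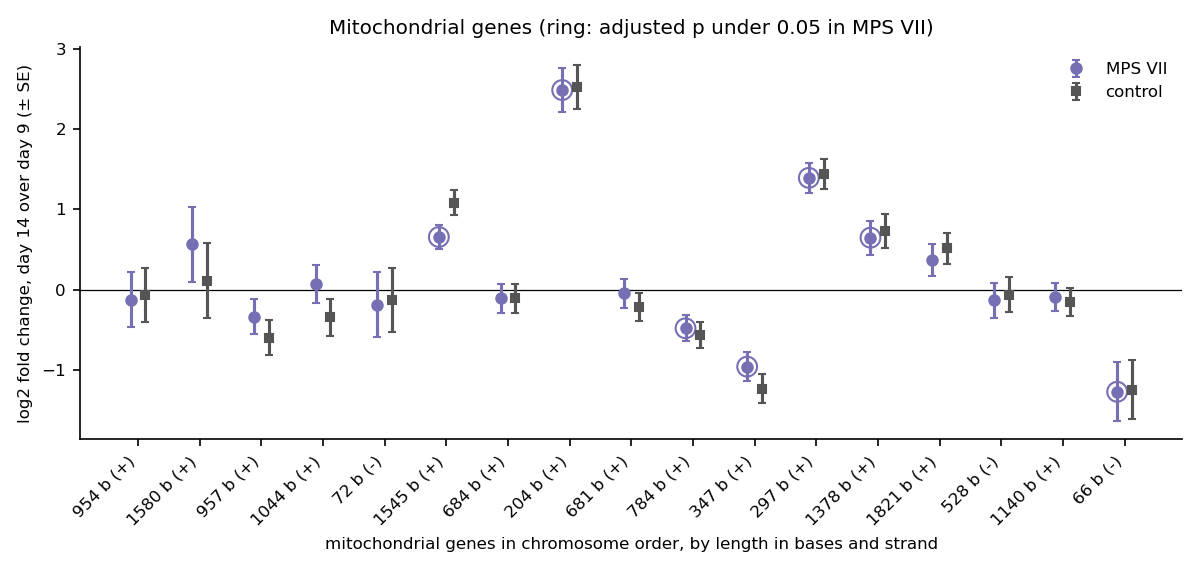
Log2 fold change of day 14 over day 9 with its standard error for the 17 tested mitochondrial genes, in chromosome order and labelled by length and strand, in MPS VII (circles, ringed where called) and control dogs (squares). The genes of 204 and 297 bases stand highest in both genotypes, at 2.49 and 1.39 in MPS VII, and the genes of 347 and 66 bases stand lowest.

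Very short genes rose more often than they fell. Of 187 tested genes with at most 150 exon bases, 184 of them with a single exon, 30 rose and 4 fell (16% and 2.14%). Of these 30, 28 rose at least 2-fold. Among genes of up to 100 bases 18.2% rose and 2.48% fell, and among those of 101 to 150 bases 12.1% and 1.52%, against 12.7% and 9.92% of all tested genes. In 17.4% of the genes of up to 100 bases the rise was at least 2-fold, against 2.94% of all genes. Their median log2 fold changes were 0.32 and 0.18, where that of all tested genes was -0.086. Many of the short genes had low levels. In the fifth of all tested genes with the lowest mean CPM, up to 2.26 CPM, 3.99% rose and 2.54% fell, and 109 of the 116 risers there rose at least 2-fold. Few falls and large rises were thus also seen in genes of low level, and the part of level in the short genes was not tested.

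Of the 30 short genes that rose, 26 were also called higher in controls. Within the span of a longer tested gene lay 9 of the 30, and in 1 of these 9 the longer gene was called higher. On chromosome 21, between 7019136 and 7030355, 9 short genes followed each other at gaps of at most 10000 bases, and 6 of them rose and 0 fell, with log2 fold changes of all 9 from 0.16 to 2.54. On chromosome 7, between 25362614 and 25365836, 5 of 10 short genes rose and 0 fell, with changes from 0.23 to 2.97. The neighbours in these clusters may be near copies that share reads, which was not tested, so they should not be taken as separate observations. Without day 9 replicate 3, 31 of the 187 rose and 7 fell. Their share of rises was then close to that of all tested genes in that fit, of which 16.1% rose and 10.5% fell.

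By classes of summed exon length, the share of all tested genes that rose grew with length. The shortest of the 5 classes below also holds the very short genes described above. With the tested genes split into 5 equal classes by length, 152 of the 2910 in the shortest class rose and 391 fell (5.22% and 13.4%), 298 and 293 in the middle class, and 725 and 168 in the longest (24.9% and 5.77%). The median log2 fold change went from -0.23 in the shortest class to 0.11 in the longest. Of 2473 genes with over 5000 exon bases 617 rose and 134 fell. In controls the medians of these classes ran the same way, from -0.27 to 0.14. Total counts were lower at day 14 in both genotypes (means 24272300 and 19121800 in MPS VII, 26163600 and 18458600 in controls), and the part of depth in the length trend was not tested.

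**Figure D3:**
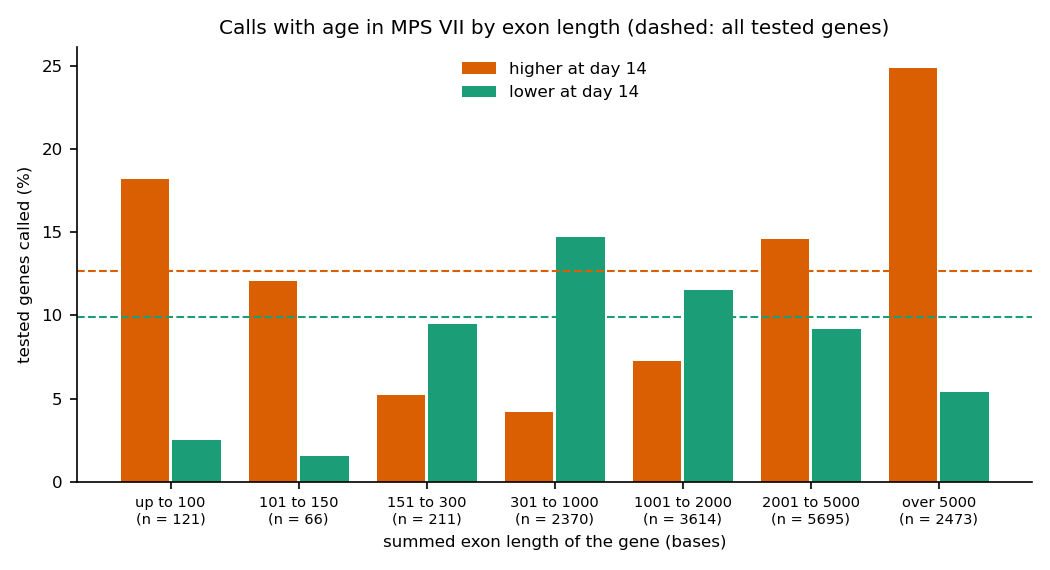
Percent of tested genes called higher (orange) or lower (green) at day 14 in MPS VII, by summed exon length with the number of genes in each class; dashed lines show the shares over all tested genes, 12.7% and 9.92%. The share called higher is 18.2% in genes of up to 100 bases, falls to 4.22% at 301 to 1000 bases and reaches 24.9% over 5000 bases.

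Chromosomes differed in the balance of rises and falls. On chromosome 29, 54 of 154 tested genes rose and 4 fell (35.1% and 2.6%), with a median log2 fold change of 0.28, the highest of the 38 autosomes with all libraries. Chromosome 36 followed with 32 that rose and 2 that fell of 125 (median 0.23). Without day 9 replicate 3 this order turned, with chromosome 36 at 0.38 and chromosome 29 at 0.34, and in controls they stood at 0.31 and 0.21. Next came chromosome 32 with 41 and 7 of 182 (0.21) and chromosome 19 with 34 and 5 of 148 (0.16). The opposite balance was found on chromosome 20, where 34 rose and 115 fell of 715 (4.76% and 16.1%, median -0.24), and on chromosomes 18, 26, 6 and 9 (medians -0.20, -0.20, -0.19 and -0.18). Chromosome 26 stood at -0.099 without day 9 replicate 3. On the X chromosome 81 of 555 rose and 44 fell (14.6% and 7.93%).

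The order of the autosomes followed how densely their tested genes lie. Chromosomes 20 and 9 hold 12.3 and 14.2 tested genes per megabase, and chromosomes 29 and 36 hold 3.68 and 4.07. Over the 38 autosomes the median change followed that density with r = -0.71 (Pearson) and rho = -0.76 (Spearman). With the length trend removed the values were -0.71 and -0.78, and without day 9 replicate 3 -0.70 and -0.75. These are descriptions over chromosomes that share the same 10 libraries and their depths. The medians in MPS VII and control dogs, which share no library, correlated with r = 0.92 and rho = 0.92, and chromosome 29 stood at 0.21 and chromosome 20 at -0.23 in controls.

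**Figure D4:**
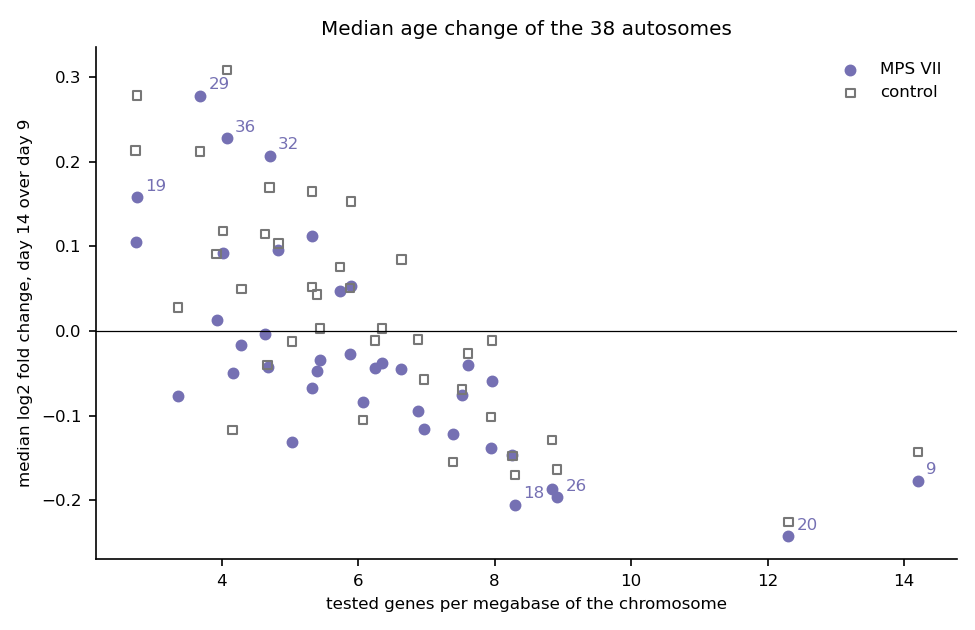
Median log2 fold change of day 14 over day 9 of each of the 38 autosomes against its tested genes per megabase, in MPS VII (filled circles, the outermost labelled by chromosome number) and in controls (open squares). Medians fall as gene density rises in both genotypes, from 0.28 on chromosome 29 to -0.24 on chromosome 20 in MPS VII.

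Neighbouring genes that all changed at least 2-fold in one direction formed 5 runs of 3 genes each, 4 higher and 1 lower. On chromosome 6, between 68077795 and 68400785, the first gene of the run went from 16.6, 18.2, 8.38, 11.1 and 11 CPM to 40.04, 44.7, 69.4, 40.7 and 37.1 CPM (log2 fold change 1.83 ± 0.20). Its 2 neighbours rose by 1.45 and 2.02, overlap each other on the same strand, and stood at 8.54 CPM ± 2.05 and 5.38 CPM ± 1.97 at day 14 (SD, n = 5). On chromosome 3, 3 single-exon genes between 73520706 and 73570744 rose by 1.64, 1.49 and 1.54. The middle one went from 2.09, 2.88, 3, 2.59 and 3.13 CPM to 7.3, 8.85, 8.09, 7.79 and 6.35 CPM, with no overlap, while the last stayed under 2 CPM and lost its call without day 9 replicate 1 or 5 or day 14 replicate 2 or 3 (edgeR adjusted p up to 0.0686).

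On chromosome 28, 3 genes between 9379847 and 9597396 rose by 1.07, 1.08 and 1.02. The third went from 16.8, 23.8, 20.4, 15 and 18.8 CPM to 34.7, 33.6, 47.2, 36.4 and 41 CPM and passed in every fit that left out 1 animal, whereas the first, under 2 CPM, lost its call without day 9 replicate 3 or 4 or day 14 replicate 1, 3 or 5 (adjusted p up to 0.0852) and with affected libraries alone (adjusted p = 0.0981). The fourth run of risers was part of the cluster of short genes on chromosome 21. All 3 genes of each rising run were also called higher in controls. The only falling run, on chromosome 21 between 40627471 and 40704729, turned on day 9 replicate 3. That library held 13, 5.57 and 15.3 CPM of its 3 genes, and the rest of day 9 held 0.668 to 3.22, 0.251 to 0.735 and 1.04 to 2.11 CPM. Without it the changes shrank from -2.08, -2.53 and -2.77 to -0.66, -0.72 and -1.30, and 1 of the 3 was still called. Without that library there were 8 runs, all 8 higher.

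Most genes that changed in affected dogs changed the same way in controls. Of the 3297 called genes 95.1% had the same sign in controls, and 2336 (70.9%) were also called there in the same direction. The 1472 shared risers were 79.4% of the risers in MPS VII and 46.3% of those in controls, and the 864 shared fallers were 59.9% and 28.7%. In controls 6187 genes passed (42.5%), 3176 of them higher (21.8%) and 3011 lower (20.7%). A total of 17 genes were called in opposite directions. The age change itself differed between genotypes in 474 genes (3.26%, edgeR adjusted p under 0.05 for the difference) and in 759 without day 9 replicate 3 (5.17%).

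Each affected animal was placed along the control change by the median log2 CPM, relative to the control mean of day 9, over the 3176 genes that rose and the 3011 that fell in controls. At day 9 the affected animals stood between -0.058 and 0.11 for the risers, where the control animals of that age stood between -0.063 and 0.088. At day 14 they stood between 0.37 and 0.68, below all control animals of day 14, which stood between 0.73 and 0.96. For the fallers the affected animals of day 14 stood between -0.50 and -0.19 and the controls between -0.76 and -0.52. Replicate 3 of day 14 lay nearest the controls and replicate 1 farthest. The genes were chosen on the control libraries, whose own positions are therefore fixed by the choice.

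**Figure D5:**
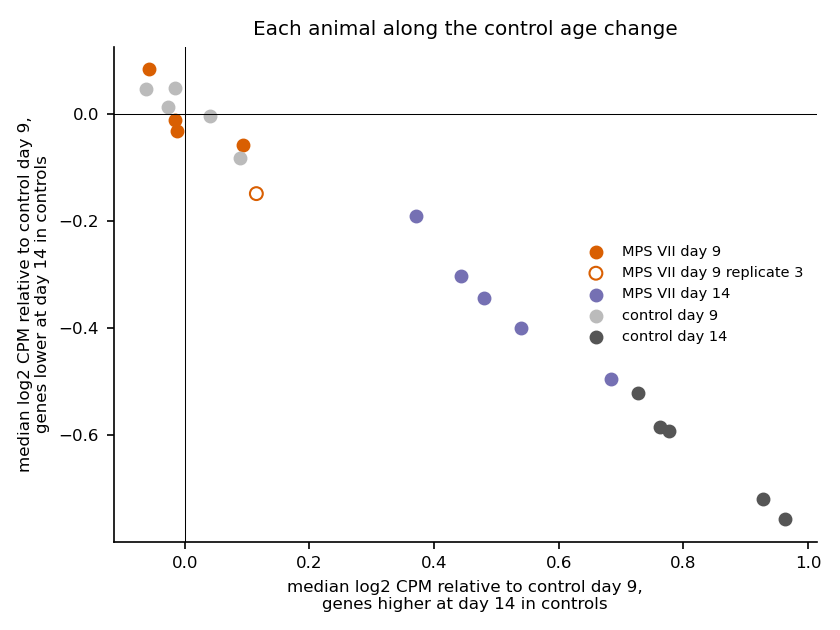
Each point is 1 animal, placed by its median log2 CPM relative to the control mean of day 9 over the 3176 genes higher at day 14 in controls (horizontal) and the 3011 genes lower (vertical). MPS VII animals of day 14 (purple) lie at 0.37 to 0.68 on the horizontal axis, between the day 9 animals of both genotypes and the control animals of day 14 (dark grey, 0.73 to 0.96).

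Of the 3297 genes called in affected dogs, 107 (3.25%) also had a called difference between genotypes, close to the 3.26% of all tested genes. In 24 of these 107 the size of the log2 fold change was larger in affected dogs than in controls, 9 higher and 15 lower. In controls 4 of the 9 risers and 0 of the 15 fallers had the same sign as in affected dogs. Without day 9 replicate 3 both tests were still passed by all 9 risers and by 9 of the 15 fallers. The 9 risers were named after their values were seen. On chromosome 13, a gene from 43877469 to 43900925 stood at 75.6, 99, 71.4, 115 and 101 CPM at day 9 and 161, 161, 214, 143 and 234 CPM at day 14 in affected dogs. Controls stood at 78.3, 87.9, 90.7, 93.5 and 111 CPM and 73.9, 118, 64.7, 60.01 and 83.9 CPM. The affected animals separated by age and the controls did not, with log2 fold changes of 0.98 ± 0.18 and -0.20 ± 0.18 (adjusted p of the difference = 0.0122, edgeR).

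On chromosome 12, a gene of 22 exons from 32932632 to 33063847 went from 70.2, 99.99, 63.2, 81.2 and 73 CPM to 164, 151, 189, 154 and 176 CPM in affected dogs. In controls it ranged over 77.3 to 111 CPM at day 9 and 84.7 to 143 CPM at day 14. The changes were 1.11 ± 0.14 and 0.22 ± 0.14, with an adjusted p of the difference of 0.0183. A gene on chromosome 1, from 11074204 to 11168872, rose by 0.88 ± 0.16 in affected dogs and changed by -0.017 ± 0.16 in controls (adjusted p of the difference = 0.0321). On chromosome 2, from 60398530 to 60469192, a gene next to the falling gene of 14 exons rose from 37.6, 47.7, 43, 53.7 and 28.7 CPM to 68.1, 74.4, 86.9, 72.7 and 69.4 CPM, where controls ranged over 23.6 to 33.4 CPM and 22.2 to 36.1 CPM. These 2 neighbours on the same strand thus changed in opposite directions in affected dogs, by 0.82 and -1.58.

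The other 5 were smaller, with log2 fold changes of 0.75 (chromosome 3, from 72323100 to 72414356), 0.64 (chromosome 27, from 14619489 to 14837435), 0.58 (chromosome 29, from 35390259 to 35407333), 0.50 (chromosome 8, from 17305885 to 17330386) and 0.42 (chromosome 7, from 62120062 to 62215347) in affected dogs. In controls they changed by 0.18, -0.067, -0.47, 0.0089 and -0.20. The adjusted p of the difference was 0.0246 to 0.0478 (edgeR). The gene on chromosome 29 was itself called lower in controls (adjusted p = 0.038), and its rise in affected dogs lost its call without day 9 replicate 4 (adjusted p = 0.0505) or day 14 replicate 5 (0.0653). With affected libraries alone, this rise and that on chromosome 7 did not pass (adjusted p = 0.072 and 0.064).

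In the 5 genes called in opposite directions with the smallest p for the difference, affected dogs fell and controls rose. In affected dogs, the 5 libraries of day 9 together held 19 counts of a gene on chromosome 4 from 57934459 to 57958154 and those of day 14 held 0, where controls rose to 7.1, 2.74, 2.5, 12.7 and 5.49 CPM. Its fall in affected dogs rests on those few counts and was lost without day 9 replicate 1 or day 14 replicate 2, 3 or 5 (edgeR adjusted p up to 0.0606), and the difference between genotypes had an adjusted p of 0.00117. A gene on chromosome 15, from 3327526 to 3359170, held 40 counts at day 9 and 8 at day 14 in affected dogs and rose by 3 in controls, and its fall was lost without day 9 replicate 1 or 4 or day 14 replicate 2, 3 or 5 (adjusted p up to 0.0906).

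The third, a gene of 273 exon bases on chromosome 11 from 68755644 to 68759219, had more reads. It went from 35.9, 42.8, 34.4, 47.1 and 40.5 CPM to 28.6, 32, 28.6, 30.3 and 30.2 CPM in affected dogs and from 36.4, 34, 35.8, 30.9 and 32.8 CPM to 49.8, 39.97, 42.9, 55 and 38.6 CPM in controls. The ages did not overlap in either genotype, the changes were -0.42 ± 0.11 and 0.41 ± 0.10, and the adjusted p of the difference was 0.00503 (edgeR). The fall held in every fit that left out 1 affected animal and was lost with the length trend removed (-0.27, adjusted p = 0.0637). The other 2 genes, on chromosomes 7 (from 43171580 to 43175063) and 24 (from 36936431 to 37003720), changed by -0.40 and -0.42 on the log2 scale in affected dogs, and both calls were lost without day 9 replicate 3 (adjusted p = 0.0908 and 0.074), without day 14 replicate 2 and without day 14 replicate 3. The former was also lost without day 14 replicate 5 (adjusted p = 0.0818), and the latter without day 9 replicate 4 or day 14 replicate 1 (adjusted p = 0.0525 and 0.0653). With affected libraries alone both were lost (adjusted p = 0.0818 and 0.0871).

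Among genes called with all libraries, the 5 whose change moved most without day 9 replicate 3 were all falls. This library stood highest of its group in each. On chromosome 26, a gene of 18 exons from 10663426 to 10688304 stood at 5.22, 4.59, 129.6, 5.64 and 5.93 CPM in day 9 replicates 1 to 5 and 6.24, 4.66, 2.62, 5.88 and 3.83 CPM at day 14. Only replicate 3 was high, and the log2 fold change went from -2.70 (adjusted p = 0.0174) to -0.18 (adjusted p = 0.542) without it. Another gene on chromosome 26, from 29032190 to 29056357, held 150.3 CPM in that library against 4.55 to 6.9 CPM in the other 4 animals of day 9. On chromosome 1, from 107434363 to 107445068, the values were 86.4 against 2.54 to 3.51 CPM, on chromosome 7, from 1024764 to 1058386, 37.1 against 1.1 to 1.97 CPM, and on chromosome 9, from 11838105 to 11845000, 19.95 against 0.0835 to 0.846 CPM. In these 4 the sign turned without the library, to changes of 0.35, 0.42, 0.24 and 0.43 that did not pass. In all, 1543 genes stood far above and 399 far below the rest of the day 9 group in this library, with a gap to the next animal of over 0.71 of the group's range, where the other 4 libraries of day 9 had 44 to 62 and 16 to 32 such genes. Markers of other cell types could not be examined in it, since the table pairs no gene with a symbol.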

How the data were processed

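Polyadenylated RNA of vertebral epiphyseal cartilage was sequenced in paired 100-base reads with a stranded mRNA kit, from RNA with an integrity number above 7, per the labels' protocols. Mapping used CanFam3.1 and the annotation of Ensembl build 77, per the labels' protocols. STAR 2.4.0j, HTSeq, edgeR, bcl2fastq and CASAVA 1.8.2 are named, without their roles, in the submitters' processing notes. Strand setting and handling of multiply matching reads were not given in the sources used here. The authors deposited raw counts per gene, with exon positions and summed exon length, per the file headers, and 0 columns belonged to no sample.

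The counts went into edgeR 4.0.16 (R 4.3.3). The 14550 genes kept by filterByExpr on the 4 groups were scaled by TMM and fitted over all 20 libraries with 1 mean per group (glmQLFit with robust estimation, glmQLFTest, Benjamini-Hochberg adjustment, threshold 0.05), and dropped genes held 0.0413% of counts. SEs come from the log2 fold change and the F statistic (change over root F). Log2 CPM used a prior count of 2. Library measures were compared by exact two-sided permutation tests of the difference of means, where 5 against 5 animals cannot go below p = 0.00794. Libraries of 1 group differed by more than sampling noise in all 20 pairs (chi-square per gene 22.9 to 649). Most low counts were even (65.2% to 76.4% of those under 200), so a fit with halved counts was among the alternatives, and so were DESeq2 1.42.0, other scalings, other filters, a removed length trend, affected libraries only and each animal left out. The edgeR steps were tested on simulated counts.

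Named genes are the 8 largest changes per direction called in both fits with no overlap and at least 2 CPM, the 5 most abundant called genes per direction, all mitochondrial genes, runs of at least 3 neighbours and the 5 most significant opposite changes. The 5 genes that move most without day 9 replicate 3, among those called with all libraries, are named too. Genes with 0 counts at one age and at least 30 at the other were also sought, and 0 were found. The short genes, the fixed classes of exon length, the relations over chromosomes and the genes with a larger rise than in controls were chosen after their values were seen. Members and lists were chosen with earlier results of these data known. The lists of pathway and cell type genes could not be applied without symbols.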

Additional observations from a re-analysis of the deposited data

Results flagged for a closer look

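In the values of named genes and library measures, 160 series of 5 animals were examined for a lone animal far from the other 4, and 21 were found. Chance gives about 1 in 20, but the genes were partly chosen for their dependence on day 9 replicate 3, so the number says nothing about an excess. Of the 21, 13 were day 9 replicate 3. It was the lowest of its group in the gene on chromosome 11 from 45179230 (0.237 CPM) and in the mitochondrial gene from 9911 (92.7 CPM). It was the highest in the genes on chromosome 6 from 9120024 (59.6 CPM), chromosome 22 from 48675520 (6.32 CPM) and the mitochondrial chromosome from 70 (476 CPM). The same held on chromosome 9 from 11838105 (19.95 CPM), chromosome 1 from 107434363 (86.4 CPM), chromosome 26 from 29032190 and from 10663426 (150.3 and 129.6 CPM) and chromosome 7 from 1024764 (37.1 CPM). It also held for the run on chromosome 21 from 40627471 (13, 5.57 and 15.3 CPM).

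At day 14, replicate 4 stood alone as the lowest in the mitochondrial gene from 5349 (5069 CPM) and as the highest on chromosome 26 from 29032190 (14.9 CPM) and chromosome 7 from 1024764 (3.6 CPM). Both of these last 2 are among the 5 called genes whose change moved most without day 9 replicate 3. Their level in day 14 replicate 4 was lower than in that library. Replicate 5 was the lowest on chromosome 15 from 3327526 (0 CPM), replicate 3 the highest on chromosome 6 from 68077795 (69.4 CPM) and replicate 2 the highest on chromosome 6 from 68379297 (8.85 CPM). At day 9, replicate 2 was the highest on chromosome 27 from 14619489 (104 CPM) and replicate 1 had the lowest share of even counts (71.2%).

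In 14 named genes the age change differed between genotypes by edgeR's test of the difference. The log2 difference, affected minus control, was -11.64 for the gene on chromosome 4 from 57934459, which held 0 counts in affected dogs at day 14, so its size depends on the prior count. For the other 4 that fell in affected dogs and rose in controls it was -5.07 ± 0.85 (chromosome 15 from 3327526), -0.84 ± 0.15 (chromosome 11 from 68755644), -0.86 ± 0.18 (chromosome 7 from 43171580) and -0.89 ± 0.19 (chromosome 24 from 36936431). For the 9 that rose more in affected dogs it was 1.19 ± 0.25 (chromosome 13), 0.88 ± 0.20 (chromosome 12), 1.05 ± 0.25 (chromosome 29), 0.63 ± 0.15 (chromosome 7 from 62120062), 0.71 ± 0.18 (chromosome 27), 0.90 ± 0.23 (chromosome 1 from 11074204), 0.49 ± 0.13 (chromosome 8), 0.77 ± 0.21 (chromosome 2) and 0.57 ± 0.16 (chromosome 3).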

How the results depend on the processing

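When the fit held the 10 affected libraries alone, 1466 genes were called, 1169 higher and 297 lower, and 34 fell at least 2-fold. With no filter on low counts 870 were lower and 106 fell at least 2-fold, and with the length trend removed 109 fell at least 2-fold. Leaving out each of the 10 affected animals in turn gave 2227 to 3902 called genes, 681 to 1586 lower (681 without day 14 replicate 3, 770 without replicate 5, 778 without replicate 2) and 66 to 269 at least 2-fold lower, with 66 without day 14 replicate 2, 83 without day 9 replicate 3, 111 without day 14 replicate 4 and 269 without day 9 replicate 1. Genes whose ages do not overlap numbered 1770 to 2770 in those fits, with the highest count without day 9 replicate 3. With 1 animal fewer the ages overlap less easily, so counts above the 1666 of all libraries follow from the design. A called difference between genotypes was found in 759 genes without that library and in 928 by DESeq2, against 474. With other scalings, a stricter filter, halved counts, DESeq2 or no robust estimation, counts for age in affected dogs were within 1.5 times those reported. The share of higher calls was 52.8% to 79.7% over all alternatives, against 56.2%.

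Of the named genes, 21 of 70 lost their call with affected libraries alone, 10 of 75 with the length trend removed, 8 with no filter, 4 of 74 with halved counts, 3 with median-ratio scaling and 0 with upper-quartile scaling, a stricter filter, no robust estimation or DESeq2 (0 of 69 with a value). These totals also hold named genes with no call to lose, the most abundant gene and most of the mitochondrial genes. The shares among called genes were therefore higher wherever calls were lost. Named genes without a value with affected libraries alone are left out of the 70. Signs turned in 6 mitochondrial genes that had no call: from 70 (-0.24 to 0.27 over the fits that leave out 1 animal, 0.029 with the length trend removed), 3914 (-0.062 to 0.21), 7034 (-0.16 to 0.016 and 0.071), 7964 (-0.11 to 0.063 and 0.13), 13582 (-0.25 to 0.012 and 0.065) and 14183 (-0.17 to 0.022 and 0.029). They also turned in 4 genes that were far higher in day 9 replicate 3, on chromosomes 9 (-4.06 to 0.43), 1 (-2.58 to 0.42), 26 (-2.71 to 0.35, from 29032190) and 7 (-2.59 to 0.24, from 1024764). The cause was not tested. No paired analysis was possible because sample titles are animal numbers, replicate numbers follow accession order and the litter of each animal was not given. At 15772761 to 27102423 counts per library, genes under about 2 CPM rested on few counts per animal.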
